A study of Drosophila melanogaster with 3 samples.

Results

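The nuclear genes of oxidative phosphorylation were examined for occupancy by the transcription factor B-H1 in Drosophila melanogaster embryos. They were taken by name from the gene annotation, as protein-coding nuclear genes whose symbol begins with ND-, ATPsyn, COX, UQCR, Sdh or Cyt-c. This gave 92 of 13945 protein-coding genes on the 6 chromosome arms. Complex I contributed 40 genes, complex II 8, complex III 11, cytochrome c 2, complex IV 16 and complex V, the ATP synthase, 15. By symbol, 66 were core genes and 26 were paralogs of the kind often called testis-type. These were symbols ending in L or in L and a digit, together with Cyt-c-d. ND-MNLL also ends in L but was set among the core genes by hand. Where the 26 paralogs are expressed was not measured.

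The data were chromatin immunoprecipitation followed by sequencing from whole embryos, 8 to 24 hours old by the source label, of a strain that carries B-H1 fused to eGFP. The 3 samples are biological replicates of 1 group, and all of them carry the fusion. The age label gives another value than the 8 to 24 hours above, and it was left aside. The description names an antibody against GFP, whereas the antibody label reads B-H1. There is no second group, so the comparisons are between replicates and between these genes and all protein-coding genes, without a test between conditions. In whole embryos, occupancy in few cells and weak occupancy in many cells cannot be told apart.

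Oxidative phosphorylation is carried out in the inner mitochondrial membrane. Complexes I and II pass electrons to ubiquinone, complex III passes them to cytochrome c, and complex IV passes them to oxygen. The proton gradient built on the way drives the ATP synthase. Most subunits are encoded in the nucleus, and in Drosophila several have an additional paralog. B-H1 is a Bar-class homeodomain protein, known for its part in the specification of sensory organs and of eye and leg structures.

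The thresholded peak lists, which the authors derived from the irreproducible discovery rate (IDR), held 1971, 3609 and 2199 peaks on the arms in replicates 1, 2 and 3. Overlapping peaks were merged into 4085 regions, of which 1375 held a peak from every replicate. The ranked lists, which also hold peaks that did not reach the threshold, had 101546, 97966 and 72939 peaks. Read depth is unknown, and replicate 2 had the most thresholded peaks. A gene is called bound where the summit of a region lies within 1 kb of one of its transcript start sites (TSSs), a statement about position and not about regulation. Peak signal is the authors' own number for each peak, on a scale that is not stated, and the percentile of a peak is its rank among the thresholded peaks of its own replicate.

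Of the 92 genes, 7 were bound by a region present in all 3 replicates, which is 7.61%, beside 7.9% of all protein-coding genes. The genes were Cyt-c-d, Cyt-c-p, ND-ASHI, ND-MWFE, ND-24, ND-51 and Cyt-c1L. In the replicate lists taken singly, 10 genes were bound in replicate 1 (10.9% beside 10.7% of all genes), 13 in replicate 2 (14.1% beside 16.5%) and 11 in replicate 3 (12% beside 11.8%). The mean over replicates was 12.3% ± 1.63 (SD, n = 3) of the 92 genes and 13.0% ± 3.08 of all genes. Both shares come from the same 3 lists, so these spreads do not measure that of the gap. The share of the 92 genes was nearly that of all genes in replicates 1 and 3 and was the lower in replicate 2.

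Looser and pooled definitions were counted in the same way. A region in at least 2 replicates bound 11 genes (12%), beside 11.3% of all genes. A region in at least 1 replicate bound 15 genes (16.3%), beside 19.5%. The conservative list, which the authors derived from all 3 replicates together, bound 12 genes (13.0%), beside 14.4% of all genes. These 12 were the 7 named above together with ATPsynE, ND-42, ATPsynCF6, COX5A and COX5B. Under each of these rules the share of the respiratory genes lay close to or below that of all protein-coding genes.

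**Figure D1:**
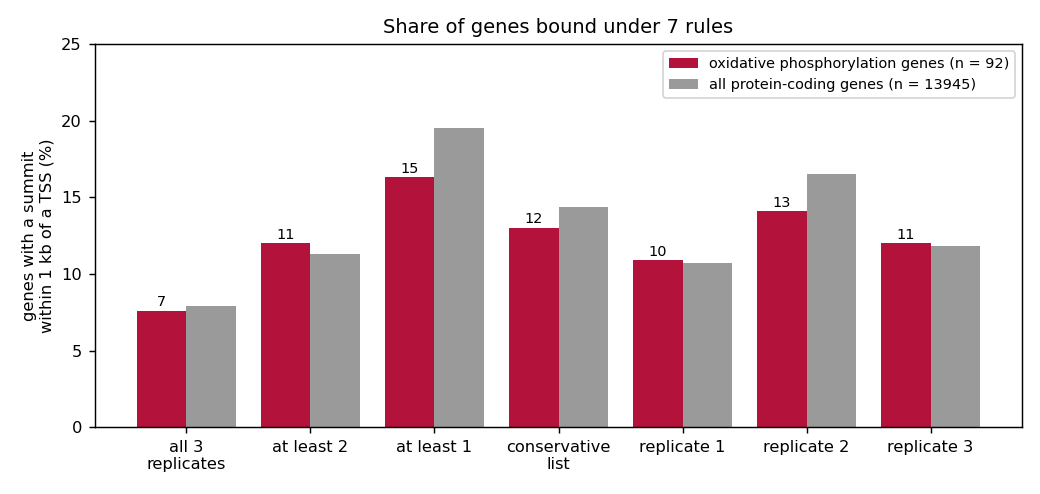
Percentage of genes bound within 1 kb (y axis) under 7 rules (x axis), for the 92 oxidative phosphorylation genes (red, with the number bound above each bar) and for all 13945 protein-coding genes (grey). The red bars range from 7.61% with a region in all 3 replicates to 16.3% with a region in at least 1, beside grey bars of 7.9% and 19.5%.

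By mean signal over the 3 replicates the strongest peaks lay at the cytochrome c genes, both of which were bound in all 3. In replicate 2 alone the ND-ASHI region (224.4) was above that of Cyt-c-d (207.0). Cytochrome c is the small haem protein that carries electrons from complex III to complex IV. In Drosophila, Cyt-c-p (FBgn0284248) encodes the somatic respiratory form, and Cyt-c-d (FBgn0086907) is known for its role in caspase activation during the individualisation of spermatids. They are neighbours on the same strand of chromosome arm 2L, with the first TSS of Cyt-c-p 4041 bp downstream of that of Cyt-c-d. The sequence at both cytochrome c summits is shown because these sites have the highest mean signal of the group (dm6, plus strand). The Cyt-c-d stretch is chr2L:16716243-16716393 and the Cyt-c-p stretch is chr2L:16720791-16720941, both intronic. Capitals mark matches, on either strand, to any of 9 short motifs that are listed further on.
Cyt-c-d: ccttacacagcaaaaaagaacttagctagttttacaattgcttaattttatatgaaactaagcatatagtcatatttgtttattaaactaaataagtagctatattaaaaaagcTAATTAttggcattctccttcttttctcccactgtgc
Cyt-c-p: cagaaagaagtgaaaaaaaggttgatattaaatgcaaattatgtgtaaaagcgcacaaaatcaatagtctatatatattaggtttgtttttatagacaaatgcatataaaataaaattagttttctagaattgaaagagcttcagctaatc

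The Cyt-c-d stretch was 27.8% G and C and held a TAATTA, a core recognised by many homeodomain proteins. The Cyt-c-p stretch was 25.2% G and C and held none of the motifs, whereas the wider 201 bp around its summit held GAGAGA.

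The Cyt-c-d region, chr2L:16716237-16716407, had a signal of 167.5, 207.0 and 202.9 in replicates 1, 2 and 3. The mean percentile was 93.3 ± 1.6 (SD, n = 3), so the site stood near the top of every list. Its summit lay in an intron, 427 bp downstream of the first Cyt-c-d TSS, 357 bp downstream of the second and 123 bp upstream of the TSS of CG31808 on the other strand. The Cyt-c-p region, chr2L:16720770-16720950, had a signal of 160.5, 257.1 and 136.1, with a mean percentile of 91.5 ± 4.2. Replicate 2 was the highest there and replicate 3 the lowest. This summit lay 934 bp downstream of the first TSS of Cyt-c-p, also in an intron, with no other protein-coding TSS within 1 kb.

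Summit positions repeated closely. Counted from the first TSS of Cyt-c-d, replicates 1, 2 and 3 peaked at 454, 399 and 427 bp for the first site and at 4944, 4975 and 4968 bp for the second. At 171 and 181 bp the merged regions were the narrowest of the 7, whose widths ran up to 366 bp. Regions under 200 bp made up 10.7% of the 802 regions in all 3 replicates that lie within 1 kb of a protein-coding TSS. Between the sites, replicate 1 had 2 weaker thresholded peaks, at 1073 bp with a signal of 28.7 and at 1311 bp with 10.4. Replicate 2 had ranked peaks nearby, at 1057 bp with 40.1 and at 1257 bp with 17.7, and neither was in its thresholded list.

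**Figure D2:**
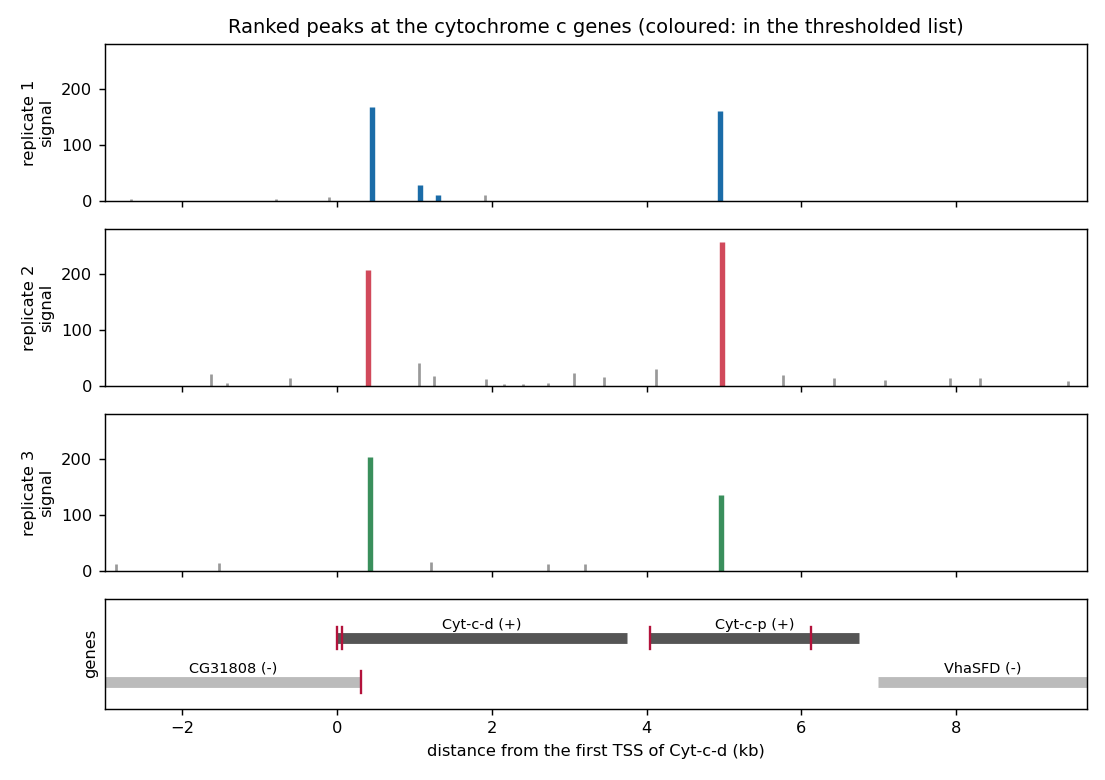
Signal of every ranked peak (authors' value, y axis) against distance from the first TSS of Cyt-c-d in kb (x axis), 1 panel per replicate, with thresholded peaks coloured and other peaks grey, and gene spans with TSSs as red ticks in the lowest panel. In every replicate the peaks inside Cyt-c-d and Cyt-c-p stand far above the others, between 136.1 and 257.1.

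In complex III, 1 of 11 genes (9.09%) was bound in all 3 replicates, beside 7.9% of all genes. This was Cyt-c1L (FBgn0039651), a paralog of the cytochrome c1 gene. Cytochrome c1 is the haem-bearing subunit that hands electrons to cytochrome c. The signal at chr3R:29204662-29204986 was 60.6, 74.5 and 73.7, a mean percentile of 54.7 ± 7.9. The summit was intergenic, 679 bp upstream of the TSS. The core gene Cyt-c1 had ranked peaks of 38.0, 23.9 and 18.1 within 1 kb, and none was in a thresholded list. The sequence at the Cyt-c1L summit (dm6 chr3R:29204737-29204887, plus strand) is shown because this was the 1 complex III gene bound in all 3 replicates, with the motif match in capitals.
Cyt-c1L: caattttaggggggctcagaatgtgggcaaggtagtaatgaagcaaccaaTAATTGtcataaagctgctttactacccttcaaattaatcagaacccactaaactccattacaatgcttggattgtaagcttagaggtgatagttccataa

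It held a TAATTG and was 38.4% G and C. The 7 core complex III genes had no thresholded peak within 1 kb in any replicate, beside 19.5% of all genes with a region in at least 1. UQCR-6.4L, another paralog, had a peak in replicate 2 with a signal of 49.8, and its summit lay 993 bp from the TSS, close to the limit of 1 kb.

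Complex I is the NADH dehydrogenase, and 4 of its 40 genes (10%) were bound in all 3 replicates, beside 7.9% of all genes. All 4 were core genes. ND-51 and ND-24 encode subunits of the module that oxidises NADH, whereas ND-ASHI and ND-MWFE encode accessory subunits. None of the 6 L-named complex I genes, ND-20L, ND-24L, ND-49L, ND-51L1, ND-51L2 and ND-B14.5AL, had a thresholded peak within 1 kb in any replicate. Over all protein-coding genes, 19.5% had a region in at least 1 replicate. Sequences at 3 of the summits are given to compare sites that lie upstream of a complex I gene and of a neighbour on the other strand (dm6, plus strand). The stretch for ND-51 is chr2L:6062818-6062968, that for ND-ASHI is chrX:6679293-6679443 and that for ND-24 is chrX:17632180-17632253, the last shortened so as to leave out exons. Capitals again mark motif matches.
ND-51: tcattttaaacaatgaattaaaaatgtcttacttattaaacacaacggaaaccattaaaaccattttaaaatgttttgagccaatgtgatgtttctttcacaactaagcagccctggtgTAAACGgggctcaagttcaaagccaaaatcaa
ND-ASHI: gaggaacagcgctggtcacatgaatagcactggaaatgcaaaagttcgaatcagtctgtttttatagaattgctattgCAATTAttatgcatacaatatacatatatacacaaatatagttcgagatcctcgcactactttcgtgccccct
ND-24: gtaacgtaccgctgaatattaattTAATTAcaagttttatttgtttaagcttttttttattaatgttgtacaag

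These printed stretches share no marked motif. The ND-51 stretch held TAAACG, the ND-ASHI stretch held TAATTG read on the other strand, and the ND-24 stretch held TAATTA. In the wider window of 201 bp used for the motif search further on, the ND-51 site also held TAATTA and CACACTG. G and C made up 32.5%, 37.7% and 23.0% of the printed stretches.

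ND-ASHI (FBgn0029888) had the highest mean signal among the bound complex I genes, at 103.0, 224.4 and 95.8 in replicates 1, 2 and 3. Replicate 2 was more than both others together, and the percentile was 82.7 ± 10.4 (SD, n = 3). The region, chrX:6679202-6679501, lay 250 bp upstream of ND-ASHI and 272 bp upstream of a TSS of Fum1, which encodes fumarase of the tricarboxylic acid cycle. By annotation the summit was in an intron of Fum1, downstream of another TSS of that gene by 944 bp. The peak cannot be assigned to either gene from position alone.

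At ND-24 (FBgn0030853) the replicates were close to each other, with a signal of 99.1, 99.4 and 90.2 and a percentile of 74.0 ± 1.5. The region, chrX:17632046-17632349, lay between 2 annotated TSSs of ND-24, with its summit 107 bp downstream of one and 125 bp upstream of the other. It was also 149 bp upstream of corolla, which encodes a component of the synaptonemal complex of meiotic chromosomes. ND-51 (FBgn0031771) had a signal of 87.7, 64.3 and 63.2 at chr2L:6062679-6063042, with a percentile of 55.1 ± 12.9. Its intergenic summit was 136 bp upstream of ND-51 and 96 bp upstream of CG13994. Replicate 1 was the highest there, whereas replicate 2 was the highest at ND-ASHI.

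ND-42 (FBgn0019957), an accessory subunit, was called in the conservative list and in 2 of 3 replicates. Its region, chr3R:22027303-22027848, had a signal of 41.5 in replicate 1 and 41.1 in replicate 3. In replicate 2 the strongest ranked peak within 1 kb reached 53.3, higher than in the other replicates, but its −log10 IDR was 1.38 and it was not in the thresholded list. The −log10 IDR in replicates 1 and 3 was 2.35 and 2.1. The summit lay 213 bp upstream of ND-42 and 16 bp upstream of Cchl, the cytochrome c haem lyase that attaches haem to cytochrome c. The sequence at that summit, chosen after the values were seen for this shared position, is dm6 chr3R:22027481-22027571, plus strand, with exons left out. It held none of the motifs, so nothing is capitalised.
ND-42: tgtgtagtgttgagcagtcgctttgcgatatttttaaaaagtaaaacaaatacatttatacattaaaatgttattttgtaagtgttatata

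Another 2 complex I genes had a thresholded peak in 1 replicate each. ND-SGDH, an accessory subunit gene, had a thresholded peak in replicate 1 alone, with a signal of 81.8. Its strongest ranked peaks in replicates 2 and 3 were 36.4 and 28.1. That region lay 90 bp upstream of ND-SGDH and 194 bp upstream of RhoGAP68F. ND-B17, also an accessory subunit gene, had a thresholded peak in its 5′ UTR in replicate 2 alone, with a signal of 59.3, and no ranked peak within 1 kb in the others.

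ND-MWFE (FBgn0085468) completed the complex I genes with a region in all 3 replicates. The signal was 100.2, 98.8 and 113.0, and the percentile was 77.4 ± 4.9 (SD, n = 3). The summit lay 166 bp upstream of ND-MWFE and 55 bp upstream of one TSS of TppII, which encodes tripeptidyl peptidase II, a cytosolic protease. The annotation places it in an intron of TppII.

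Of the genes taken by name, complexes IV and V had none bound in all 3 replicates, out of 16 and 15, beside 7.9% of all genes. The complex IV gene levy and the ATP synthase gene blw fall outside the naming rule. Both were bound in all 3 replicates, as given further on. In the conservative list complexes IV and V each had 2 of the genes taken by name (12.5% and 13.3%), beside 14.4% of all genes. All of these were core genes. COX5A (FBgn0019624) and COX5B (FBgn0031830) encode nuclear subunits of cytochrome c oxidase. The COX5A site had a signal of 60.8 in replicate 2 and 65.0 in replicate 3, and replicate 1 had no ranked peak there. It lay 76 bp upstream of COX5A and 103 bp upstream of glo, which encodes an RNA-binding protein of the hnRNP class. COX5B had a conservative peak with a signal of 84.1, at percentile 7.5 of that list, 239 bp upstream of COX5B and 59 bp upstream of IFT52, an intraflagellar transport gene. Its strongest ranked peaks in the replicates were 24.7, 38.0 and 34.8, and none reached a thresholded list. The 8 L-named complex IV genes, COX4L, COX5BL, COX6AL, COX6AL2, COX6CL, COX7AL, COX7AL2 and COX7CL, had no thresholded peak in any replicate. Again, 19.5% of all genes had a region in at least 1 replicate.

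ATPsynE (FBgn0038224), a small subunit gene of the ATP synthase, had a thresholded peak in each replicate, but at 2 places. The first, 3 bp upstream of one of its TSSs and 255 bp upstream of Afti, was found in replicate 3, with a signal of 64.7. The second lay 921 bp downstream of the same TSS and 800 bp downstream of another. It was found in replicate 1 with a signal of 41.3 and in replicate 2 with 96.5. Neither region was present in all 3, so the gene was not counted as bound in all 3, and the conservative list held both. ATPsynCF6 (FBgn0016119), which encodes coupling factor 6, had 50.1 in replicate 2 and 33.7 in replicate 3, at a site 75 bp upstream of the gene and 139 bp upstream of Sec13. Sec13 is a component of the COPII coat and of the nuclear pore. Another region in all 3 replicates was 1018 bp from ATPsynCF6, just outside the limit. The 4 L-named genes ATPsynbetaL, ATPsynCF6L, ATPsynepsilonL and ATPsynGL had no thresholded peak, beside 19.5% of all genes with a region in at least 1 replicate. With 4 genes such a count is coarse.

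In complex II, succinate dehydrogenase, none of the 8 genes was bound in all 3 replicates or in the conservative list. The shares of all genes were 7.9% and 14.4%. The 8 include Sdhaf3, by its name an assembly factor and not a subunit. SdhA, the flavoprotein subunit, had 1 thresholded peak within 1 kb, in replicate 2 with a signal of 76.9. Its summit was 886 bp upstream of SdhA and 85 bp upstream of cer, which encodes a cysteine protease inhibitor. The 3 L-named genes SdhAL, SdhBL and SdhCL had no thresholded peak, beside 19.5% of all genes with a region in at least 1 replicate. With 3 genes that count is coarse too.

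**Figure D3:**
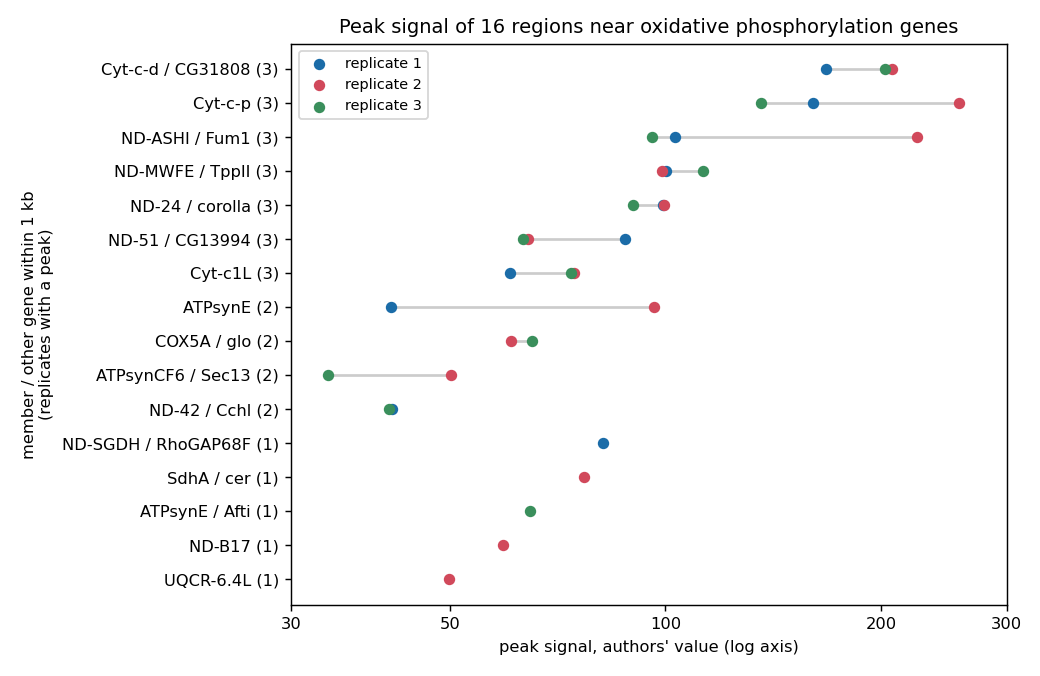
Peak signal (authors' value, log x axis) of the 16 merged regions whose summit lies within 1 kb of an oxidative phosphorylation gene, with points coloured by replicate and lines joining the lowest and highest. Labels give the gene, another protein-coding gene within 1 kb where one is reported, and the number of replicates with a peak. The cytochrome c regions reach 136.1 to 257.1, and the regions found in 2 replicates lie between 33.7 and 96.5.

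Of the 26 paralogs, L-named genes together with Cyt-c-d, 2 were bound in all 3 replicates (7.69%), Cyt-c-d and Cyt-c1L. The core genes had 5 of 66 (7.58%), and all protein-coding genes had 7.9%. In the conservative list the paralogs again counted 2 (7.69%) and the core genes 10 (15.2%), beside 14.4% of all genes. A region in at least 1 replicate bound 3 of the paralogs and 12 of the core genes, beside 19.5% of all genes. UQCR-11L and UQCR-14L were the remaining complex III paralogs, and neither had a thresholded peak.

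To place the unbound genes too, each gene was given the highest signal of any ranked peak within 1 kb, and this was turned into a percentile among all protein-coding genes in each replicate, where genes with no such peak share the lowest rank. The median percentile of the 92 genes was 44.2, 57.1 and 46.8 in replicates 1, 2 and 3, a mean of 49.4 ± 6.8 (SD, n = 3), while all genes are at 50 by construction. The core genes had 37.3, 62.4 and 45.6, a mean of 48.4 ± 12.8. The L-named genes with Cyt-c-d had 49.0, 29.8 and 52.6, a mean of 43.8 ± 12.3. The core genes were thus the higher in replicate 2 alone. Each of these means is within 1 SD of 50. With a window of 500 bp in place of 1 kb the mean for the 92 genes was 32.4. All 92 genes had a ranked peak in at least 1 replicate, beside 96.9% of all genes, and 39 (42.4%) had one in all 3, beside 47.0% of all genes.

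Single genes ran from the top to well below the middle. Cyt-c-d was at 98.7 ± 0.3, Cyt-c-p at 98.4 ± 0.4, ND-ASHI at 97.1 ± 1.3, ND-MWFE at 96.0 ± 1.5 and ND-24 at 95.4 ± 0.9. Next came Cyt-c1L at 92.9 ± 1.5, ND-51 at 92.6 ± 3.1 and ATPsynE at 92.3 ± 2.4. The highest genes outside the bound lists were ND-SGDH at 84.3 ± 10.1, ATPsynC at 82.4 ± 5.8, COX6B at 78.1 ± 8.2, COX7B at 72.6 ± 5.1 and ND-ACP at 71.3 ± 12.1. The lowest were ND-B14 at 23.3 ± 15.4, UQCR-6.4 at 22.5 ± 14.0 and ND-30 at 21.2 ± 11.7, each with a ranked peak in replicate 2 alone.

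**Figure D4:**
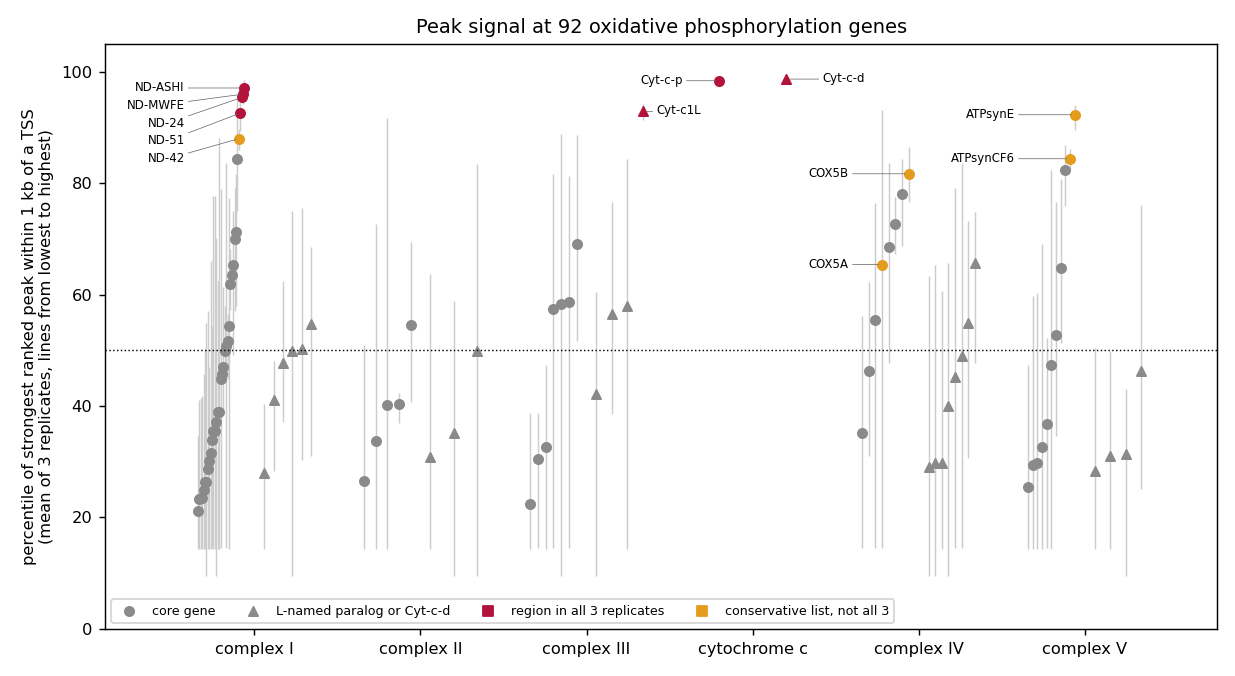
Percentile of the strongest ranked peak within 1 kb (y axis, mean of 3 replicates, lines from the lowest to the highest replicate) for each of the 92 genes by respiratory complex (x axis), with circles for core genes and triangles for L-named genes and Cyt-c-d. Red marks genes with a region in all 3 replicates and orange those in the conservative list without one. The 7 red genes lie between 92.6 and 98.7, and the dotted line is at 50.

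The 7 regions were compared, without a test, with the 802 regions in all 3 replicates near a protein-coding TSS. Upstream of the nearest TSS lay 5 of 7 summits (71.4% beside 81.3%), and 4 were upstream of genes on both strands (57.1% beside 35.5%). A second gene lay within 1 kb for 5 (71.4% beside 40.9%), and 5 were intronic (71.4% beside 37.5%). The median distance to a TSS was 123 bp, beside 168 bp, and the median G and C content was 32.3%, beside 33.3%.

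Head-to-head gene pairs, with TSSs on opposite strands within 1 kb, were common among the core genes. Of 66 core genes 41 (62.1%) had such a partner, compared with 4 of 26 L-named genes and Cyt-c-d (15.4%) and 36.2% of all protein-coding genes. Among the 92 genes, 4 of 45 with a partner (8.89%) and 3 of 47 without (6.38%) were bound in all 3 replicates. Over all protein-coding genes those shares were 13.7% and 4.61%. In the conservative list they were 20.0% and 6.38% among the 92 genes, and 24.1% and 8.88% over all genes.

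The distance limit mattered for the count. The bound genes farthest from their summit were Cyt-c-d at 357 bp, Cyt-c1L at 679 bp and Cyt-c-p at 934 bp. Just outside were ATPsynCF6 at 1018 bp, ND-39 at 1533 bp and COX7C at 1939 bp. Within 5 kb of a TSS, 28 of 92 genes (30.4%) had a summit of a region in all 3 replicates, beside 16.8% of all genes. The core genes had 34.8% and the L-named genes with Cyt-c-d 19.2%. The 92 genes also had more neighbours, with a median of 3 other protein-coding genes within 5 kb against 2 for all. In a comparison chosen after the values were seen, 21% of the 5604 genes with at least 3 neighbours were within 5 kb of such a summit. Those genes are not matched to the 92, since their median was 4 neighbours against 3. Whether gene density has a part in the gap was not tested.

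Short motifs were searched on both strands, in the 201 bp around summits and in the promoters, taken as 250 bp before to 50 bp after the TSS. They were the homeodomain core TAATTA with its variant TAATTG, the hexamer TAAACG, the heptamer CACACTG, the GA repeat GAGAGA, the E-box CACGTG, the Ets-type core CGGAAG, and TATCGA with the longer element TATCGATA, which contains it. At the 7 summits TAATTA was found in 3, Cyt-c-d, ND-24 and ND-51 (18.2% of the 802 regions). TAATTG was in 2, Cyt-c1L and ND-ASHI (20.2%), and TAAACG in 2, ND-51 and ND-MWFE (8.98%). CACACTG was in 1, ND-51 (4.61%), and GAGAGA in 1, Cyt-c-p (8.6%). TATCGATA was in none (3.49%), as was TATCGA (12.3%), and so were the E-box (2.87%) and the Ets-type core (2.87%). With 7 regions such shares are coarse.

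In the promoters, CACACTG had the widest gap to the background of the 9. It was in 22 of 92 promoters (23.9%), beside 8.85% of all promoters. The core genes held it in 21 of 66 (31.8%) and the L-named genes with Cyt-c-d in 1 of 26, ATPsynGL. Of the genes bound in all 3 replicates, ND-51 and ND-MWFE had it. TAATTA was in 23.9% of the 92 promoters beside 20.0% of all, TAATTG in 29.3% beside 25.1%, TAAACG in 17.4% beside 14.4%, TATCGA in 30.4% beside 27.0%, and TATCGATA in 8.7% beside 8.94%. GAGAGA was in 8.7% beside 12.6%, the E-box in 5.43% beside 4.26%, and the Ets-type core in 3.26% beside 6.38%. A match is a description of the letters in the window, and not a binding site.

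Other genes of the pathway and of mitochondrial metabolism were counted in the same way, beside the 7.9% of all genes. Of 7 subunit genes whose symbols fall outside the naming rule, 2 were bound in all 3 replicates, blw, the alpha subunit of the ATP synthase, and levy, a complex IV subunit. Their gene percentiles were 97.2 ± 1.5 and 95.1 ± 2.2. Of 12 assembly factors that matched the annotation 2 were bound, CIA30, known for complex I assembly, at 99.8 ± 0.1 and Ttc19 at 92.6 ± 2.8. Another 18 symbols of that list had no match, so its share is a partial one. Of 21 genes of the tricarboxylic acid cycle 3 were bound, Idh3g, Fum1 and Pdhb. Of 15 genes for the maintenance and expression of mitochondrial DNA 2 were, PNPase and mtSSB, and of 5 regulators 1 was, ERR.

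Glycolysis and the ribosomal proteins gave a scale for these counts. Of 13 glycolytic genes 5 (38.5%) were bound in all 3 replicates, Gapdh2, Eno, Hex-A, Ldh and Pgk, and 7 in the conservative list. Of 92 cytosolic ribosomal protein genes 18 (19.6%) were bound, and of 73 mitochondrial ribosomal protein genes 9 (12.3%). The mean of the median gene percentiles was 88.5 ± 1.7 for glycolysis and 84.1 ± 3.7 for the cytosolic ribosomal proteins, compared with 49.4 ± 6.8 for the 92 oxidative phosphorylation genes, a gap larger than the replicate spread. The other mitochondrial lists were nearer to that value, with 57.1 ± 7.4 for the mitochondrial ribosomal proteins, 49.2 ± 17.0 for the tricarboxylic acid cycle, 51.1 ± 23.4 for the assembly factors and 47.5 ± 29.8 for the mitochondrial DNA genes. The 5 regulators had 53.6 ± 21.9 and the 7 subunit genes outside the naming rule 64.8 ± 5.1.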

How the data were processed

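Per the labels, chromatin was sheared by sonication and immunoprecipitated from whole embryos, in 3 biological replicates of 1 group. Coordinates are on dm6, per the descriptions deposited with the files. The sources used here name neither aligner nor peak caller. The labels also name a control, which was not analysed here. Per replicate, the authors deposited a ranked list and a thresholded list of peaks, with a signal per peak, a score from the IDR procedure and, in the ranked lists, the −log10 of the global IDR. Every thresholded peak had a −log10 global IDR of at least 2. The lists of each replicate derive from its own alignments and 1 further file shared by all 3, so they are not fully independent. The authors' conservative list has 1 signal per peak for the series. Of the series' ranked lists, 32 per-sample columns were left out, since their replicate is not known. Read depth is unknown, so no counting interval is given.

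Peaks of the 3 replicates were merged where they overlapped by at least 1 bp. Each merged region took the summit of its replicate of highest percentile. Genes and TSSs came from Ensembl release 115 and sequence from Release 6, the same coordinates as dm6. The share of members bound was set beside that of all protein-coding genes, with no test. Counting was tested on planted peaks. Python 3.11.15, numpy 2.4.6, pandas 2.3.3 and matplotlib 3.10.9 were used.

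A gene next to ATPsynE is not reported here. Genes were named by rule: those bound in all 3 replicates, those added by the conservative list, the L-named paralogs, the 5 unbound genes with the highest and the 3 with the lowest percentile, and up to 5 bound genes of each other list. The members, the lists and the motifs were chosen with earlier results of these data known. Alternatives were other distances, other numbers of replicates, a stricter IDR, other overlap and TSS rules and leaving out each replicate.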

Additional observations from a re-analysis of the deposited data

How the results depend on the processing

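The 7 genes bound in all 3 replicates became 5 at 500 bp and 10 at 2 kb. These counts were 5.43% and 10.9% of the 92 genes, beside 6.63% and 10% of all protein-coding genes. The count was 7 with a −log10 IDR of at least 2.5, with a larger overlap required to merge peaks or with the most upstream TSS. That was 7.61%, beside 7.04%, 7.88% and 6.86% of all genes. Where any base of the region counted it was 8 (8.7%, beside 8.25%). Leaving out 1 replicate gave 8 to 9, or 8.7% to 9.78%, beside 8.76% to 9.37% of all genes. The count moved by more than 1.5 times with 5 kb (28), with a region in at least 2 replicates (11) or at least 1 (15) and with the conservative list (12). In that order the shares were 30.4%, 12%, 16.3% and 13.0%, beside 16.8%, 11.3%, 19.5% and 14.4% of all genes. The original 7 were kept under each of these settings except 500 bp, which kept 5 and lost Cyt-c-p and Cyt-c1L. By complex, 500 bp gave 0 in complex III and 1 in cytochrome c, and 2 kb gave 1 in complex IV and 1 in complex V. At least 2 replicates gave 1 in complex IV and 2 in complex V. At least 1 replicate gave 7 in complex I, 1 in complex II, 2 in complex III, 1 in complex IV and 2 in complex V. The conservative list gave 2 in complex IV and 2 in complex V. Leaving out 1 replicate gave 0 to 1 in complex IV, with 1 only without replicate 1, and 0 to 1 in complex V, with 0 only without replicate 2. The median percentile of the 92 genes was 32.4 at 500 bp against 49.4, and 45.5 to 52.0 with 1 replicate left out. Of 100 values for single named genes, 15 moved by more than the replicate spread and 85 did not. Cyt-c-p dropped from 98.4 to 38.7 and Cyt-c1L from 92.9 to 19.3 at 500 bp, because their summits lie farther from the TSS than that. No paired analysis was possible because the samples form 1 group.

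Peaks are the authors' calls, and occupancy below their threshold is not counted. Calls follow the IDR as well as the signal. Neighbouring genes share summits, so the bound genes are not independent of each other.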

Other observations

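Some ranked peaks passed a −log10 IDR of 2 and are absent from the thresholded lists, 68, 112 and 64 on the arms in replicates 1, 2 and 3. At the 92 genes this concerned 2 peaks, both of replicate 2. One was at ATPsynC, with a signal of 50.2 and a −log10 IDR of 2.03, and the other at COX7AL2, with 48.4 and 2.1. ATPsynC encodes the membrane ring subunit of the ATP synthase, and neither gene was counted as bound.

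In 2 cases the neighbour at a shared summit was in another of the mitochondrial lists, ND-ASHI with Fum1 and ND-42 with Cchl. The first was bound in all 3 replicates and the second in the conservative list. The other neighbours named above, CG13994, CG31808, TppII, corolla, RhoGAP68F, glo, Afti, Sec13, IFT52 and cer, were in none of those lists. The 2 pairs were picked out after the values were seen.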
